A study of Sus scrofa with 36 samples.

Results

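Glucose and glycerol metabolism in the liver was followed through 8 genes, GPD1, GK, PC, PCK1, PCK2, FBP1, G6PC and PDK4, in 36 castrated male pigs. A probe was assigned to a gene through its symbol, transcript accession or description, and was kept if its signal was called well above background in 6 or more of the 36 hybridisations. Of 60305 probes on the array, 38 read these genes and 37 of the 38 were kept, among 44796 kept probes in all. GPD1 had 5 kept probes, GK 2, PC 3, PCK1 6, PCK2 3, FBP1 3, G6PC 3 and PDK4 12. These 37 probes were well above background on all 36 arrays, and the other, GK O13333, on 2 arrays. The 8 genes were part of 10506 gene symbols with a kept probe.

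The pigs were Large White (LW), Creole (CR) or their cross (F1), with 12 animals of each. In each of these breeds 6 animals were sampled at thermoneutrality (TN, 24 °C) and 6 under heat stress (HS), for which the sample labels give 30 °C and the growth protocol gives 32 °C for 5 days. Slaughter of the HS pigs followed that of the TN pigs, so effects of heat, of slaughter day and of age cannot be told apart. The animals were not fasted before slaughter, but the paper reports a lower feed intake under heat. Effects of feed intake cannot be told apart from those of heat either. Of the hepatocyte markers, 6 of 8 were kept, among them ALB, APOA1 and TTR. On the first principal component of all kept probes (18.6% of the variance), CR arrays (2.35 to 35.36) overlapped with F1 arrays. LW TN replicates 1 and 6, at -4.83 and -3.04, lay above the other LW arrays (-44.20 to -24.80). F1 TN replicate 3 and F1 HS replicates 1 and 2, at -18.13, -17.02 and -21.30, lay below the other F1 arrays (-1.31 to 36.89). These are called the 5 arrays away from their breed, though some CR and F1 arrays also lay among those of the other breed. Differences between temperatures that moved most without the 5 are also given without them.

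The liver makes glucose from lactate, amino acids and glycerol. Pyruvate carboxylase (PC) and the cytosolic and mitochondrial phosphoenolpyruvate carboxykinases (PCK1 and PCK2) open this route, fructose-1,6-bisphosphatase (FBP1) acts in its middle, and the catalytic subunit of glucose-6-phosphatase (G6PC) releases free glucose. Glycerol enters through glycerol kinase (GK), and the cytosolic glycerol 3-phosphate dehydrogenase (GPD1) interconverts glycerol 3-phosphate and dihydroxyacetone phosphate, between glycerol, glycolysis and triglyceride synthesis. Pyruvate dehydrogenase kinase 4 (PDK4) inhibits pyruvate dehydrogenase and so keeps pyruvate from oxidation. Hepatic PCK1, G6PC and PDK4 are known to rise in fasting and to fall with insulin.

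On the pig assembly Sscrofa11.1 the genes lie at chr5:16008179-16021676 (GPD1), chrX:26470422-26558892 (GK), chr2:5566608-5587797 (PC), chr17:57930507-57936523 (PCK1), chr7:75187195-75197613 (PCK2), chr10:27588609-27622225 (FBP1), chr12:19965885-19975783 (G6PC) and chr9:75246956-75260134 (PDK4). Probe sequences below are 5′ to 3′ as the scanner tables give them. Those of PCK1, PCK2 and G6PC are not the probes whose levels stand for these genes in the results.

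Several GPD1 probes read the same stretch of transcript, so their values are not independent. A_72_P662126 and A_72_P667123 start at transcript positions 1787 and 1792, 5 bases apart, and share 55 bases, and O15018 has the sequence of A_72_P667123. Their first 30 bases are shown with the stretch they share in capitals.
GPD1 A_72_P662126: ccaggCCCCACATGGCATCAATGAATCTCA
GPD1 A_72_P667123: CCCCACATGGCATCAATGAATCTCAGTGTT
GPD1 O15018: CCCCACATGGCATCAATGAATCTCAGTGTT
A_72_P442634, at position 853, reads another stretch and is shown whole, because it gave the smallest difference between temperatures.
GPD1 A_72_P442634: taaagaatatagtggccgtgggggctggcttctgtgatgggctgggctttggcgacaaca

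PCK1 and PCK2 are paralogs, and PCK2 differed between breeds where PCK1 was not called. A PCK1 probe (A_72_P441080, position 1953) and a PCK2 probe (A_72_P607328, position 1995) align without gaps when shifted by 2 bases, and 35 of the 58 aligned bases (60.3%), in capitals, are the same.
PCK1 A_72_P441080: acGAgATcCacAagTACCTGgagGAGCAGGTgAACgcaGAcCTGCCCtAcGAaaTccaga
PCK2 A_72_P607328: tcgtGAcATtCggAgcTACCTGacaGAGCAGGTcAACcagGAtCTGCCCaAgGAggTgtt

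For G6PC, which varied most between animals, the probe at position 631 is shown.
G6PC A_72_P440076: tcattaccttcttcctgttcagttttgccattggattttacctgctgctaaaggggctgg

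GPD1 was lower in HS than in TN at 4 of its 5 probes, and was the only one of the 8 genes called between temperatures. PCK2 was higher in CR than in LW at all 3 of its probes. It was the only one called between breeds in the main setting, though probes of other members passed in some other settings. G6PC had the widest spread within every group, and its level rose and fell with that of PCK1 from animal to animal. All levels are log2 normalized signal and all differences are log2 differences, so that 1 is a doubling. The kept probe of highest mean level stands for its gene (the representative probe), and levels of different probes are not set against each other.

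**Figure D1:**
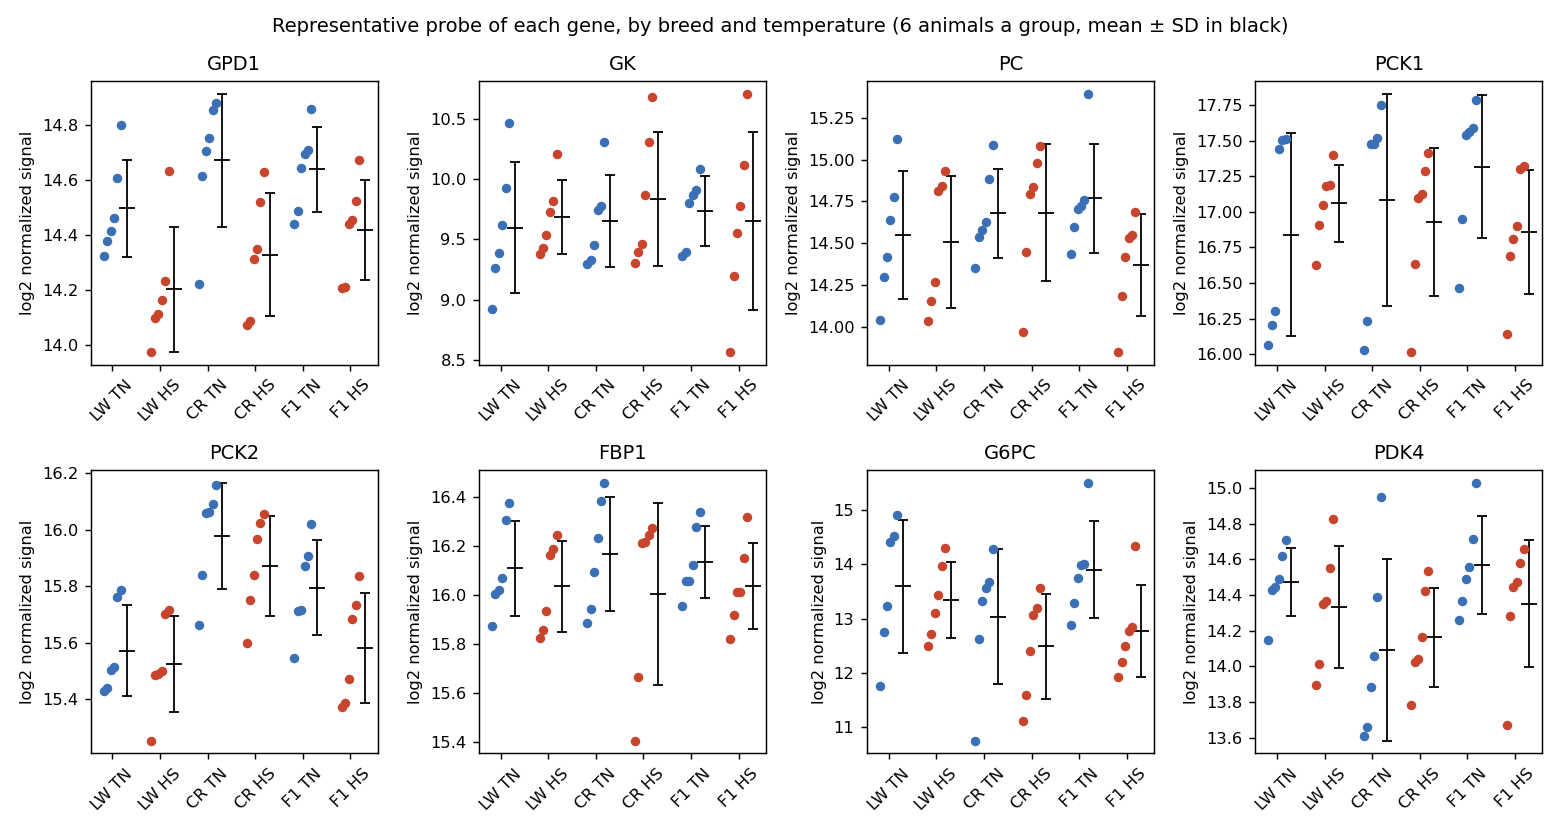
Log2 normalized signal (y axis) of the representative probe of each of the 8 genes in the 6 groups (x axis), 1 point per animal drawn in order of its value, TN in blue and HS in red, with the mean ± SD of 6 animals in black. The GPD1 mean of HS is below that of TN in each breed, the PCK2 means of CR are above those of LW, and the axes, which differ between panels, show the widest spread for G6PC.

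GPD1 was described first at its representative probe A_72_P662126. In LW its level ranged from 14.32 to 14.80 in TN (median 14.44) and from 13.98 to 14.63 in HS (median 14.14). In CR it ranged from 14.22 to 14.88 in TN (median 14.73) and from 14.07 to 14.63 in HS (median 14.33). In F1 it ranged from 14.44 to 14.86 in TN (median 14.67) and from 14.21 to 14.67 in HS (median 14.45). TN and HS animals overlapped in every breed: 5 of 6 LW, 2 of 6 CR and 3 of 6 F1 animals in HS lay below the lowest TN animal of their breed. Against the TN mean of their breed, 16 of 18 HS animals were lower.

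The mean level of GPD1 was 14.60 ± 0.20 at TN against 14.32 ± 0.22 at HS (SD, 18 animals each). HS minus TN was -0.29 (SE 0.07, 95% interval -0.42 to -0.15), a change of -18.0%, with an adjusted p of 0.0273 in limma. Pigs that shared a pen or a slaughter day, which the labels do not mark, were counted as independent animals. Over all kept probes 0.859% were called in this comparison and 0.424% were called lower, and of the 37 probes of the 8 genes 4 were called, all lower and all of GPD1. Since 3 of these 4 read the overlapping stretch printed above, they are close to 1 measurement. In bulk liver, fewer cells of a type and less RNA per cell cannot be told apart.

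The remaining GPD1 probes gave the same direction. At A_72_P667123 the difference was -0.32 (adjusted p = 0.0134) and at O15018, of identical sequence, -0.30 (adjusted p = 0.0241). A_72_P352923, at position 1326, gave -0.28 (adjusted p = 0.0378), and its call was lost in 15 of 36 fits without 1 array and in 7 of 17 other settings. A_72_P442634 gave -0.20 (95% interval -0.35 to -0.06), which did not pass (adjusted p = 0.175). Over 36 arrays with group means removed, the identical pair had a Pearson r of 0.946, and the 10 pairs of GPD1 probes ranged from 0.575 to 0.946.

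Within breeds GPD1 differed between temperatures by -0.29 in LW (95% interval -0.53 to -0.06), by -0.34 in CR (-0.58 to -0.11) and by -0.22 in F1 (-0.46 to 0.02). None passed after adjustment, and the interaction of breed and temperature had an unadjusted p of 0.752 in limma. By slide, with breed means removed, the difference was -0.34, -0.37, -0.07, -0.36 and -0.32 on slides 1 to 5, so it was smallest on slide 3. No gene of the 9 cell type marker lists was called between temperatures, but only 0.952% of all genes were called there. The summed level of the hepatocyte markers ran from 20.67 to 20.85 in TN and from 20.73 to 20.87 in HS. The part of cell types in the GPD1 difference was not tested.

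The GPD1 call changed with the arrays used. It was lost at all 4 probes without slide 1, 2, 4 or 5, where the representative probe gave -0.28, -0.26, -0.26 and -0.28 (adjusted p = 0.0786, 0.124, 0.178 and 0.104). It was also lost without the 5 arrays away from their breed, at -0.27 (adjusted p = 0.0723), and was kept without slide 3, at -0.35 (adjusted p = 0.0384).

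**Figure D2:**
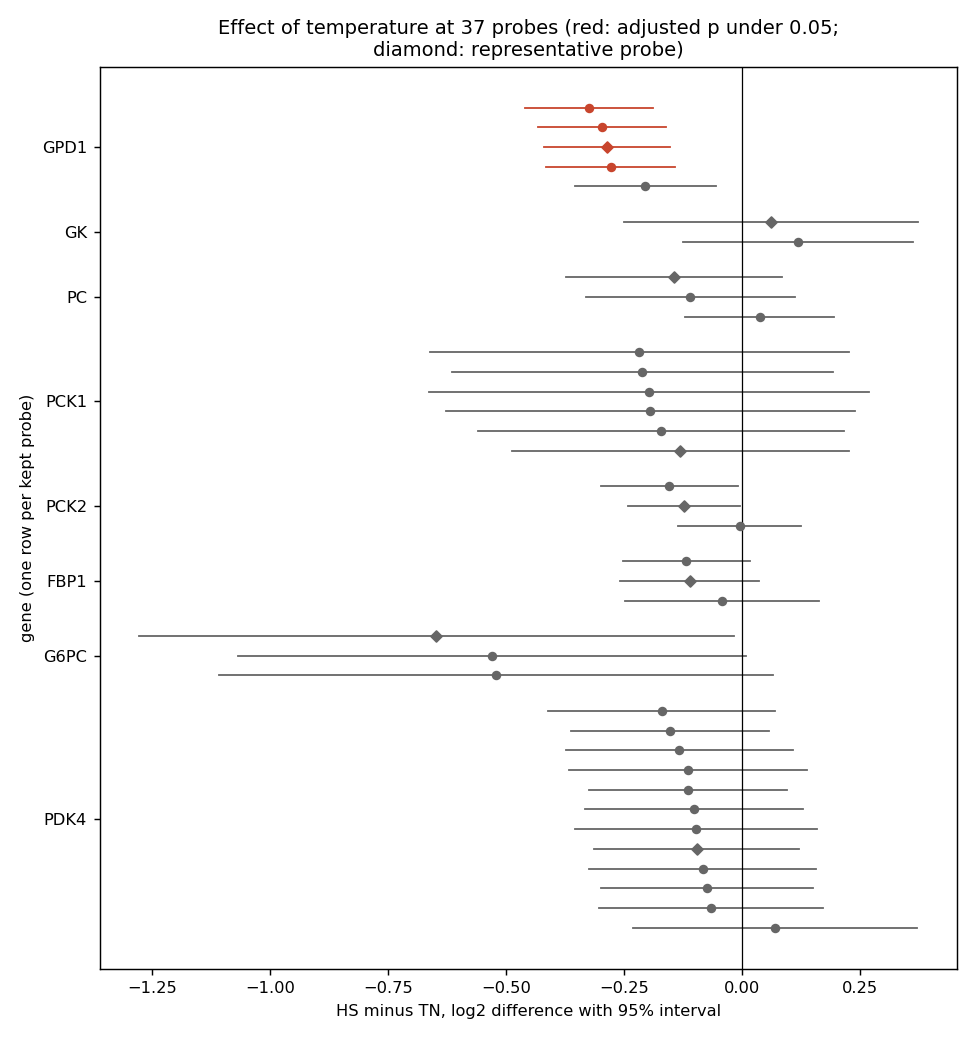
HS minus TN on the log2 scale (x axis) with its 95% interval for each of the 37 kept probes (y axis, grouped by gene), diamonds for representative probes and red for an adjusted p under 0.05. The red probes are 4 of the 5 of GPD1, 33 of the 37 values lie below 0, and the widest intervals are those of G6PC.

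Counts over all members put these values in context. In HS minus TN, 33 of 37 probes and 7 of 8 representative probes were below 0, with a median of -0.13 over the 8 against -0.00 over all genes. Unadjusted p-values under 0.05 were found for 8 of 37 probes, against 13.1% of all kept probes. Probes of 1 gene share their transcript and all probes share the animals, so these counts are a description.

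Within single breeds no member probe passed. In LW 0 of 37 were called and 5 had an unadjusted p under 0.05, where 0 of all kept probes were called and 5.12% had such a p. In CR the counts were 0 and 5 (0 and 7.4% of all kept probes), and in F1 they were 0 and 6 (0.00893% and 9.31%). In F1 36 of 37 probes were below 0, against 25 in LW and 21 in CR, where the median over all kept probes was 0.00 in each breed. Many of these probes are of PCK1, PC, G6PC and PDK4. At the representative probes of these genes F1 TN replicate 3 had the highest value of all animals. The interaction test called none of the 37 probes, and none had an unadjusted p under 0.05, against 3.74% of all kept probes, of which 0 were called. The differences therefore were not shown to differ between breeds.

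GK, through which glycerol enters, had no call. Its representative probe A_72_P084427 ranged from 8.92 to 10.47 in TN (median 9.68) and from 8.57 to 10.71 in HS (median 9.64). The HS range enclosed the TN range. The difference was 0.06 (95% interval -0.25 to 0.37), and at A_72_P264887 it was 0.12 (95% interval -0.13 to 0.36). On slide 1 the difference of GK was 0.66, and on slides 2 to 5 it ran from -0.05 to 0.03. Without slide 1 it was -0.02 over all breeds, and without the 5 arrays away from their breed it was -0.05.

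PC makes oxaloacetate from pyruvate. Its representative probe A_72_P444978 ranged from 14.04 to 15.39 in TN (median 14.63) and from 13.85 to 15.08 in HS (median 14.54), and the groups overlapped widely. The difference was -0.14 (95% interval -0.37 to 0.08). By breed it was -0.04 for LW, 0.00 for CR and -0.40 for F1 (95% interval -0.79 to -0.00), the last with an unadjusted p of 0.0489 and an adjusted p of 0.534 in limma. The F1 TN group held the highest PC value of all animals, that of replicate 3. Without the 5 arrays away from their breed, of which it is 1, the difference was -0.09 over all breeds and -0.18 within F1, and without slide 4 it was -0.06 and -0.26.

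PCK1 turns oxaloacetate into phosphoenolpyruvate in the cytosol. Its representative probe A_72_P637186 ranged in LW from 16.07 to 17.51 in TN (median 16.87) and from 16.62 to 17.40 in HS (median 17.12). In CR it ranged from 16.03 to 17.75 in TN (median 17.48) and from 16.02 to 17.41 in HS (median 17.11). In F1 it ranged from 16.47 to 17.79 in TN (median 17.55) and from 16.14 to 17.32 in HS (median 16.85). The TN animals fell on either side of a gap, 7 from 16.03 to 16.95 and 11 from 17.44 to 17.79, and each breed had animals on both sides. No HS animal was above 17.41.

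The difference of PCK1 between temperatures was -0.13 (95% interval -0.49 to 0.23), and its 6 probes gave -0.22 to -0.13. By breed it was 0.22 for LW (95% interval -0.40 to 0.84), -0.15 for CR (-0.77 to 0.46) and -0.46 for F1 (-1.07 to 0.16). All 6 probes were above 0 in LW and below 0 in CR and F1, and their pairwise r within groups was 0.969 to 0.994. The interaction had an unadjusted p of 0.300 in limma, so a difference between breeds was not shown. By slide the difference was -0.85 and -0.90 on slides 1 and 4, and 0.18, 0.31 and 0.24 on slides 2, 3 and 5. Over all breeds it was -0.02 without slide 1, 0.09 without slide 4 and -0.07 without the 5 arrays away from their breed. Within F1 it was -0.13 without slide 4 and -0.31 without the 5 arrays.

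G6PC, the last step to free glucose, had the largest difference between temperatures of the 8 genes, and it did not pass. Its representative probe A_72_P714188 ranged in LW from 11.75 to 14.90 in TN (median 13.82) and from 12.50 to 14.29 in HS (median 13.27). In CR it ranged from 10.75 to 14.29 in TN (median 13.45) and from 11.11 to 13.56 in HS (median 12.73). In F1 it ranged from 12.88 to 15.50 in TN (median 13.87) and from 11.92 to 14.34 in HS (median 12.63). In F1 5 of 6 HS animals lay below the lowest TN animal, and in LW and CR 0 of 6 did. The F1 count was 4 of 6 at A_72_P440076, where CR had 1 of 6, and 3 of 6 at O9881.

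HS minus TN of G6PC was -0.65 (SE 0.31, 95% interval -1.28 to -0.02), or -36.2%, with an unadjusted p of 0.0444 and an adjusted p of 0.361 in limma. The 3 probes gave -0.65 to -0.52, with pairwise r of 0.946 to 0.951. By breed the difference was -0.26 for LW, -0.55 for CR and -1.14 for F1 (95% interval -2.24 to -0.03, adjusted p = 0.517). It rested on a pair of slides. With breed means removed it was -2.004 on slide 1 and -1.77 on slide 4, and -0.05, -0.06 and -0.03 on slides 2, 3 and 5. Slide 1 held 4 arrays, of 2 LW pigs in TN and 1 CR and 1 F1 pig in HS. Over all breeds the difference was -0.32 without slide 4, -0.45 without slide 1 and -0.41 without the 5 arrays away from their breed (unadjusted p = 0.218 in limma). Within F1 it was -0.61 without slide 4 and -0.54 without the 5 arrays. These slides were also those on which PCK1 was lower in HS.

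FBP1, in the middle of the route, varied little. Its representative probe A_72_P232692 ranged from 15.87 to 16.46 in TN (median 16.08) and from 15.41 to 16.32 in HS (median 16.08). The lowest animals were of CR in HS. The difference was -0.11 (95% interval -0.26 to 0.04), and the other probes gave -0.12 and -0.04.

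PDK4 was read by 12 probes and had no call. Its representative probe O11548 ranged from 13.61 to 15.03 in TN (median 14.44) and from 13.67 to 14.83 in HS (median 14.36). The difference was -0.10 (95% interval -0.31 to 0.12), and 11 of 12 probes were below 0. It was -0.02 without the 5 arrays away from their breed, -0.06 and -0.03 without slides 2 and 3, -0.17 without slide 5, and -0.13 to -0.05 without single arrays. O11548 and A_72_P576424 have the same sequence and gave -0.10 and -0.07, with an r of 0.975 within groups.

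Between breeds, PCK2, the mitochondrial enzyme, was the member that differed. At its representative probe A_72_P430259 the level ranged from 15.25 to 15.79 in LW (median 15.50), from 15.60 to 16.16 in CR (median 16.00) and from 15.37 to 16.02 in F1 (median 15.71). LW and CR overlapped, but 9 of 12 CR animals were above the highest LW animal and 8 of 12 LW animals were below the lowest CR animal. The F1 median was between those of the parental breeds.

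CR minus LW of PCK2 was 0.38 (SE 0.07, 95% interval 0.23 to 0.52), or 29.9%, with an adjusted p of 0.000226 in limma. Litter mates within a breed, which the labels do not mark, were counted as independent animals. It was 0.36 at A_72_P239137 (adjusted p = 0.000985) and 0.33 at A_72_P607328 (adjusted p = 0.00451). These were the 3 member probes called of 37, and 9 had an unadjusted p under 0.05. Of all kept probes 26.5% were called in this comparison, 13.6% higher, and 37.6% had an unadjusted p under 0.05. The members' share was below that of the array, but probes of a gene share their transcript, so this is a description. With group means removed, the pairwise r of the 3 PCK2 probes was 0.03, 0.24 and 0.75, lower than among the probes of PCK1 or G6PC.

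The PCK2 difference between CR and LW was 0.41 in TN and 0.35 in HS. On slides 1 to 5 it was 0.32, 0.41, 0.34, 0.36 and 0.53 with temperature means removed, where slide 1 held 2 LW arrays and 1 CR array. At A_72_P239137 it was 0.21 in TN and 0.50 in HS, and at A_72_P607328 0.33 and 0.34. All 3 probes kept their call under each alternative processing in which they were tested and without each single array, with 0.30 to 0.41 at the representative probe.

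F1 minus CR of PCK2 was -0.24 (95% interval -0.38 to -0.09, adjusted p = 0.0880) and F1 minus LW was 0.14 (95% interval -0.01 to 0.29, adjusted p = 0.178). The distance of F1 from the mean of both parental breeds was -0.05 (95% interval -0.18 to 0.08). Between temperatures PCK2 gave -0.12 (95% interval -0.24 to -0.00, adjusted p = 0.357), -0.15 at A_72_P607328 and -0.00 at A_72_P239137.

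Some markers of other liver cells were called between the same breeds, where 25.9% of all genes were called. Macrophage markers were lower in CR for 5 of 7 kept genes, with a summed level of 16.88 to 17.16 in LW and 16.50 to 16.99 in CR. Lymphocyte markers were lower for 5 of 9 (10.37 to 10.97 in LW, 10.08 to 10.71 in CR) and endothelial markers for 4 of 5 (12.36 to 13.03 in LW, 12.01 to 12.62 in CR). Hepatocyte markers were lower for 2 of 6, with 20.73 to 20.87 in LW and 20.67 to 20.81 in CR, and of the cholangiocyte markers 1 of 5 was higher and of the adipocyte markers 1 of 4 lower, shares close to that of all genes. No stellate, pancreas or red cell marker was called. Their part in the PCK2 difference was not tested.

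**Figure D3:**
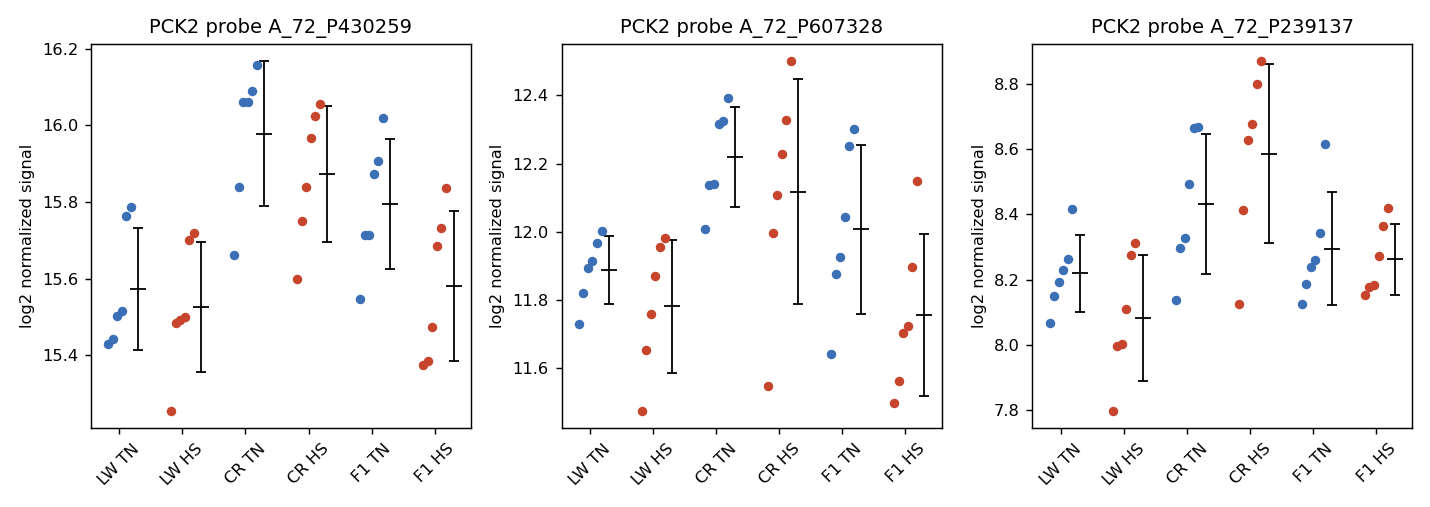
Log2 normalized signal (y axis) of the 3 PCK2 probes, 1 panel each, in the 6 groups (x axis), 1 point per animal drawn in order of its value, TN in blue and HS in red, with the mean ± SD of 6 animals in black. In each panel the CR mean is above the LW mean in both temperatures, and 1 CR animal in HS is low at A_72_P607328.

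The other members were not called between breeds in the main setting. In CR minus LW, G6PC gave -0.70 (95% interval -1.48 to 0.07, adjusted p = 0.176) and PDK4 -0.28 (95% interval -0.54 to -0.01, adjusted p = 0.118). PDK4 O11548 passed in 2 of 17 other settings and without 1 of 36 single arrays. GPD1 gave 0.15 (95% interval -0.01 to 0.31), PC 0.15 (-0.13 to 0.43), GK 0.10 (-0.28 to 0.49), PCK1 0.06 (-0.38 to 0.49) and FBP1 0.01 (-0.17 to 0.19).

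In F1 minus LW 0 of 37 probes were called and 2 had an unadjusted p under 0.05 (18.4% and 31.8% of all kept probes). In F1 minus CR 0 were called and 13 had an unadjusted p under 0.05 (1.5% and 12.5%). All 12 PDK4 probes were above 0 there, at 0.23 to 0.38, with a smallest adjusted p of 0.239 at O11548, whose median was 14.48 in F1 and 14.05 in CR. Against the mean of the parental breeds, F1 had 0 calls and 3 unadjusted p-values under 0.05 (1.12% and 15.2%).

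The 6 group means of each representative probe were put in order and the 40 pairs of neighbours in those orders compared by exact permutation tests (two-sided). None differed after Benjamini-Hochberg adjustment, and the smallest exact p was 0.0649, for PCK2 between F1 HS (15.58) and F1 TN (15.80). Neighbours were picked from these same values as the groups with the closest means. The tests could therefore hardly pass, and they do not show that groups are alike. GPD1 ran from LW HS (14.20) through CR HS, F1 HS, LW TN and F1 TN to CR TN (14.67), with all HS groups below all TN groups. PCK2 ran from LW HS (15.52) through LW TN, F1 HS, F1 TN and CR HS to CR TN (15.98). G6PC ran from CR HS (12.49) through F1 HS, CR TN, LW HS and LW TN to F1 TN (13.90).

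PCK1 ran from LW TN (16.84) through F1 HS, CR HS, LW HS and CR TN to F1 TN (17.32), and PC from F1 HS (14.37) through LW HS, LW TN, CR TN and CR HS to F1 TN (14.77). PDK4 ran from CR TN (14.09) through CR HS, LW HS, F1 HS and LW TN to F1 TN (14.57). GK ran from LW TN (9.60) to CR HS (9.84) and FBP1 from CR HS (16.00) to CR TN (16.17). F1 TN thus had the highest mean for PCK1, PC, G6PC and PDK4. It was not called apart from the next group, in tests that could hardly do so. For each of these genes the highest value of all animals was that of F1 TN replicate 3, at 17.79, 15.39, 15.50 and 15.03. This animal raised each of these F1 TN means, and the order of groups without it was not tested.

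Variation between animals of one group was compared for the 28 pairs of members, over 36 animals with group means removed, by two-sided permutation tests within groups. PCK1 and G6PC rose and fell together, with r = 0.870 and rho = 0.880 (adjusted permutation p = 0.000280 for both, the smallest that 100000 permutations allowed here). PC followed G6PC (r = 0.688, rho = 0.698, adjusted permutation p = 0.000280 for both) and PCK1 (r = 0.587, rho = 0.586, adjusted permutation p = 0.00187 and 0.00203). GK went the other way, against G6PC (r = -0.578, rho = -0.479, adjusted permutation p = 0.00398 and 0.0406) and against PC (r = -0.573, rho = -0.618, adjusted permutation p = 0.00398 and 0.00196). These were the 5 pairs that passed.

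Without the 2 animals farthest from the median of the first gene, r was 0.835 for PCK1 with G6PC, 0.622 for PC with G6PC, 0.519 for PC with PCK1, -0.559 for GK with G6PC and -0.689 for GK with PC. With slide means also removed it was 0.871, 0.632, 0.489, -0.532 and -0.531 in the same order. PCK1 with G6PC had an r of 0.905 in TN and 0.804 in HS. Since PCK1 in TN fell on either side of a gap, r was also taken on each side, at 0.656 over the 7 lower and 0.812 over the 11 higher animals. The gap was placed from these same values and the group means removed were those of both sides together. These r are therefore a description and do not show that the correlation is free of the gap.

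GPD1 had an r between -0.23 and 0.25 with each of the other 7 genes, and PCK2, FBP1 and PDK4 passed with no gene. The pair nearest to passing was GK with PCK1 (r = -0.433, rho = -0.408, adjusted permutation p = 0.0647 and 0.105). PCK1 and its paralog PCK2 had an r of -0.26, which did not pass.

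**Figure D4:**
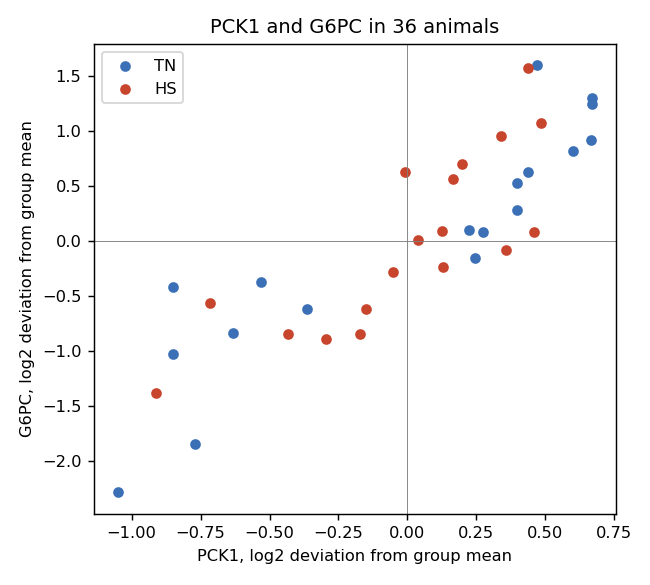
Deviation of G6PC from its group mean (y axis, log2) against that of PCK1 (x axis, log2) in 36 animals, TN in blue and HS in red. The points rise together in both temperatures, with an r of 0.905 in TN and 0.804 in HS.

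**Figure D5:**
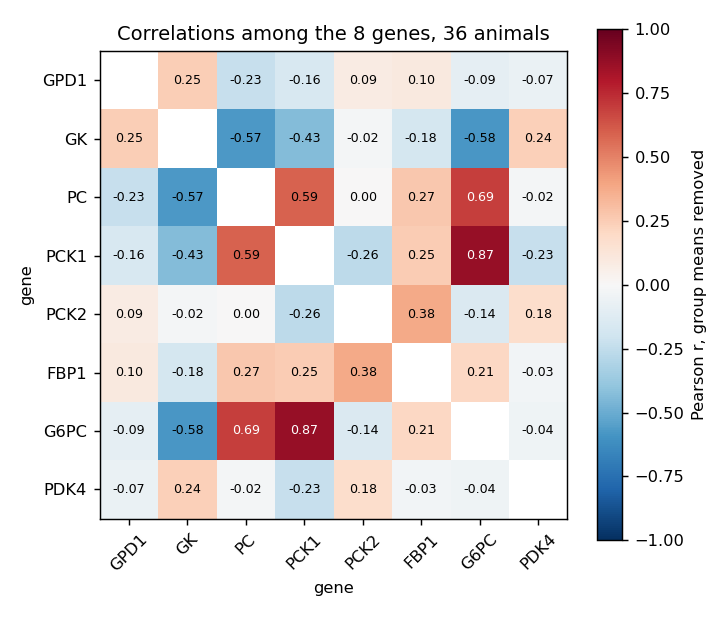
Pearson r between the 8 genes (both axes) over 36 animals with group means removed, printed in each cell and coloured from blue (-1) to red (1), with the diagonal left blank. PCK1, G6PC and PC are positive with each other and negative with GK, and GPD1 has no value beyond -0.23 or 0.25.

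The genes whose level followed a member most closely within groups, among 10490 genes searched over 36 animals, are given as a description. For G6PC they were TUFT1 (r = 0.837), WSB1 (r = 0.821) and KIAA1755 (r = 0.817), and for PCK1 they were TUFT1 (r = 0.804), SEPSECS (r = 0.800) and LYN (r = 0.793). For GPD1 they were NDUFB8 (r = 0.733), RAB6A (r = 0.706) and SCML2 (r = 0.665). For PDK4 they were ME1 (r = 0.622), LMNB2 (r = 0.599) and RRP8 (r = 0.592).

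The rest of the pathway was read from 132 genes, of which 108 had a kept probe. In HS minus TN 2 were called lower and 0 higher, which is 1.85% of the 108 against 0.952% of all genes, and the median difference was -0.01. One was KLF9, a transcription factor induced by glucocorticoids and thyroid hormone. Its level ranged from 12.10 to 13.20 in TN (median 12.53) and from 11.42 to 12.87 in HS (median 11.87). The ranges overlapped, and the difference was -0.63 (SE 0.11, adjusted p = 0.00462), called in all 18 other settings and without each of 36 arrays.

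The other was ME1, the cytosolic malic enzyme that makes NADPH, whose level ranged from 6.59 to 8.37 in TN (median 7.63) and from 6.30 to 7.80 in HS (median 7.11). Its difference was -0.53 (SE 0.14, adjusted p = 0.0492), and the call was lost in 30 of 36 fits without 1 array and in 11 of 18 other settings.

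In the remaining pathway lists no gene passed between temperatures. Of 11 other genes listed with gluconeogenesis, enzymes and carriers, 8 were below 0, with a median of -0.02. The largest differences were at LDHA, a lactate dehydrogenase subunit (-0.35, adjusted p = 0.0841), and the citrate carrier SLC25A1 (-0.12). LDHA ranged from 11.91 to 13.19 in TN and from 11.63 to 12.90 in HS, and passed in 4 of 18 other settings. Of 16 kept glycogen genes 3 were below 0 and the median was 0.07. The largest differences there were at PPP1R3C (0.53, adjusted p = 0.569) and PPP1R3B (0.35, adjusted p = 0.368), subunits that bring protein phosphatase 1 to glycogen.

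Of 19 kept glycolytic genes 12 were below 0, with PFKFB1 at 0.15 and PGAM1 at -0.13. Of 13 kept genes of glycerol 3-phosphate metabolism 5 were below 0, with the acyltransferases GPAT4 at -0.22 and GPAT3 at 0.21. Of 8 kept transporters 7 were below 0, with SLC2A8 at -0.39 (adjusted p = 0.262) and SLC2A3 at -0.10. In the pentose phosphate list, TKT gave -0.06 and RPIA 0.06.

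Between breeds, 8 of the 108 pathway genes were higher and 12 lower in CR than in LW (18.5%, against 25.9% of all genes). GYG1, which primes glycogen synthesis, ranged from 8.09 to 8.97 in LW (median 8.69) and from 7.65 to 8.43 in CR (median 7.96), a difference of -0.65 (SE 0.11, adjusted p = 4.66e-05). MLXIPL, which encodes the glucose-responsive transcription factor ChREBP, ranged from 10.13 to 10.60 in LW (median 10.37) and from 10.64 to 11.43 in CR (median 10.95). Its groups did not overlap, and the difference was 0.58 (SE 0.13, adjusted p = 0.00124). The macrophage, lymphocyte and endothelial markers named above for PCK2 move with these breeds too, and their part was not tested.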

How the data were processed

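Liver RNA of 36 pigs was hybridised on 1-colour Agilent arrays, and groups were taken from the sample labels (6 groups of 6). The authors deposited 1 scanner table per array (Feature Extraction 10.10.1.1), holding spot intensity values with no normalization between arrays, and a table of log2 values for 42051 probes. In that table probes were centred (probe means 6.43 to 9.21), so absolute levels are lost, and it served as an alternative.

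Here, median signals of 60306 non-control spots were log2 transformed and then quantile normalized without background subtraction, which shrinks differences of dim probes, and 107 non-uniform spots were set missing. The filter on background kept 74.3% of probes. Median signals per array were 70 to 92 against backgrounds of 18 to 25, with 39644 to 44025 spots called above background and none saturated. Precision is limited by how many arrays each group has. The 5 slides each held as many TN as HS arrays. limma 3.58.1 (R 4.3.3) was fitted with breed and temperature, or with the 6 groups for contrasts within breeds and the interaction, with p-values adjusted by Benjamini-Hochberg over all kept probes at 0.05. Pen, slaughter day and parents, which the study modelled, could not be added because the labels lack them. The labels name separate animals but not their litters. The paper reports that the animals of each breed came in blocks of litter mates. The fits counted all animals as independent, so p-values between breeds take no account of this and can be too small. The paper also reports that pigs of a temperature shared pens and slaughter days. For that reason p-values between temperatures can be too small as well. Correlations and exact tests were run in Python 3.11.15 with scipy 1.17.1. The fits were tested on simulated data.

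All members were named, with every kept probe. From the pathway lists the text names genes called in HS minus TN, otherwise the 2 largest differences per list, and the 2 largest called in CR minus LW. The 3 genes most like GPD1, PCK1, G6PC and PDK4 are also named. Members and lists were chosen with earlier results of these data known. Gene names came from the files and from RefSeq for Sscrofa11.1. Alternatives covered background correction, normalization, the authors' table, the background filter, slide as a block, array weights, the spread, the breed term, averaging probes per gene, single arrays, slides and the 5 arrays apart.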

Additional observations from a re-analysis of the deposited data

Results flagged for a closer look

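In 48 sets of 6 animals (8 representative probes in 6 groups), 1 animal lay far from the other 5, where chance gives about 1 in 20 sets, or 2.4. F1 TN replicate 3 had a PC level of 15.39, and the other 5 F1 TN animals ranged from 14.43 to 14.76. Its gap to the nearest of them was 0.663 of the range of the group. It is among the 5 arrays that lay away from their breed on the first principal component. The array most like it had an r of 0.989 with it, and every other array had a closer match. This animal was also the highest of all for PCK1, G6PC and PDK4. Its part in the correlations among PCK1, PC and G6PC was not tested on its own.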

How the results depend on the processing

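No paired analysis was possible because the labels give no replicate numbers shared between groups. The count of member probes called in HS minus TN was 4, but 3 in the authors' log2 table and with array weights, 1 with one value per gene (1 of 8 genes), 0 without slide 1, 2, 4 or 5, 0 without the 5 arrays apart, and 3 to 4 without single arrays. In CR minus LW it was 3, but 5 with the processed signal, 8 in the authors' log2 table, 6 with array weights, 1 with one value per gene, 6 without the 5 arrays, 6 without slide 2 or slide 3, and 3 to 8 without single arrays (8 without CR TN replicate 3, and 5 without LW HS replicate 1, F1 TN replicate 3 or CR HS replicate 6). Counts above 3 include probes of genes other than PCK2, which has 3 kept probes. In F1 minus LW the count was 0, but 1 with normexp, with probes above background on all 36 arrays, with slide as a block, with array weights and without the 5 arrays. In F1 minus CR it was 0, but 1 with slide as a block, with one value per gene and without slide 5. Against the mean of both parents it was 0, but 1 without the 5 arrays. These 3 counts were 0 to 1 without single arrays. Fewer animals, or fewer features with one value per gene, enter some of these fits, and otherwise the cause was not tested. The interaction and the contrasts within breeds gave 0 under every alternative run, and 5 pairs of members stayed correlated under both alternatives.

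Signs turned for differences near 0 that were never called. HS minus TN of GK was -0.0550 without the 5 arrays and -0.0246 without slide 1, and that of PCK1 0.0884 without slide 4. CR minus LW of GK was -0.00527 without slide 3. That of PCK1 was -0.131 without slide 2 and -0.0327 to 0.153 without single arrays. That of FBP1 was -0.0612 with the processed signal, -0.0569 in the authors' table, -0.00926 with one value per gene, -0.0152, -0.0208 and -0.0101 without slides 3, 4 and 5, and -0.0170 to 0.0712 without single arrays.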
